A study of Mus musculus with 12 samples.

Results

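The 6 genes described here, Sphk1, Sema4d, Efnb2, Cthrc1, Pdgfb and Spp1, encode factors or enzymes through which osteoclasts, the bone-resorbing cells, signal to the cells that form bone and vessels. They were chosen by name out of the 24421 genes listed, and all 6 were found. Their mRNA was measured by RNA-seq in BMMs, the macrophages grown from bone marrow from which osteoclasts can form. The mice are described as on the C57BL/6 background, which was not checked here. All mice carried LysMcre, a Cre recombinase driven by the lysozyme M promoter, which is active in myeloid cells in general and not in osteoclasts alone. In the loss of function experiment, WT cells were Mir182+/+LysMcre(+) and Mir182ΔM/ΔM cells were Mir182flox/floxLysMcre(+), and each genotype was cultured with M-CSF for 3 days and then either left without RANKL (basal) or given RANKL, the cytokine that drives osteoclast differentiation, for 5 days. In the gain of function experiment, Control cells were LysMcre(+) and Mir182mTg cells carried LSL-Mir182LysMcre(+), a Mir182 transgene behind a stop cassette that Cre removes, and both were sampled basal after 3 days of M-CSF. Each of the 6 conditions had 2 samples, 12 in all, and the ages of the mice are not given in the sources used here. With 2 samples a condition, and no statement of which mice they came from, p-values measure the spread between these samples. In the main tests, which fit the group alone, that spread includes the difference between the replicate 1 and replicate 2 libraries.

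Bone remodelling couples resorption to formation, and osteoclasts carry part of that signal. Sphk1, sphingosine kinase 1, makes sphingosine-1-phosphate (S1P), which leaves the cell through transporters and acts on S1P receptors of osteoblast lineage cells. Cthrc1 is a secreted collagen triple helix repeat protein that promotes bone formation, Pdgfb encodes the platelet-derived growth factor chain PDGF-BB, which recruits progenitors and vessels, and Spp1 encodes osteopontin, a bone matrix protein that binds integrins and CD44. Efnb2, ephrin-B2, is a membrane ligand that signals to EphB4 on osteoblasts. Sema4d, semaphorin 4D, differs from the others in that it acts on plexin-B1 of osteoblasts to hold formation back.

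The study altered miR-182, a microRNA that pairs through its seed, bases 2 to 8, with matching letters in the 3′ UTRs of mRNAs. The RefSeq entry for the mature arm lies at chr6:30165962-30165986 (GRCm38.p6, minus strand), and it is shown because its seed defines the matches counted here, with the seed in capitals.
mmu-miR-182-5p: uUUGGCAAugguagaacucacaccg
The complement of that seed (TTGCCAA), or its last 6 bases followed by A (TGCCAAA), was searched on the sense strand in the annotated 3′ UTRs of GENCODE vM21, which is on the same build as mm10. All 6 genes had an annotated 3′ UTR, and 2 of them, Efnb2 and Sema4d, held a match, against 18.3% of the 21028 genes with a 3′ UTR. The Efnb2 match joins both forms into 8 bases at chr8:8617702-8617709 (minus strand) in a 3′ UTR of up to 3154 bases. The Sema4d match is the form with the final A, at chr13:51685587-51685593 (minus strand), in a 3′ UTR of up to 1363 bases. Both are printed 5′ to 3′ as the transcript reads, with the match in capitals, because they are the only such matches found for the 6 genes.
Efnb2 3′ UTR: ggtataaaaggTTGCCAAAttgctgcatat
Sema4d 3′ UTR: tgaggtagaaaTGCCAAAcaggccaatta
The longest 3′ UTRs of Sphk1, Cthrc1, Pdgfb and Spp1 had 288, 356, 1408 and 432 bases and held neither form. A match is a description of letters and was not tested as a binding site.

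RANKL signalling acts partly through the transcription factor AP-1, so the letters TGANTCA, which read the same on both strands, were searched in RefSeq promoter windows of 250 bases before to 50 bases after each annotated start. Of all 32851 windows, 7.81% held them. There were 11 windows for 4 of the genes (Sphk1, Sema4d, Efnb2 and Spp1), and 3 of these windows held a match. In Sphk1, 2 overlapping windows share the same match, within chr11:116531776-116531804 (plus strand). In Sema4d, 1 window held a match within chr13:51749032-51749060 (minus strand). They are shown because they are the only matches in these windows, with the match in capitals (GRCm38.p6).
Sphk1 promoter: gagcgtgtcgcTGAGTCAccttctcggaa
Sema4d promoter: ccccacatcccTGAATCAgcctatatagg
The windows of Efnb2, which also rose with RANKL, and of Spp1 held no such letters. Pdgfb and Cthrc1 had no window to search. These letters were not tested as a binding site or as a cause of any change.

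The samples had between 24951280 and 33050619 reads on genes, and a level made of 3 reads, under which a level was not read as expression and a ratio is given only with its counting interval, is 0.0908 to 0.120 CPM (reads of a gene scaled to the library's total of reads on all listed genes). The Mir182 row, which in poly-A libraries reflects the precursor transcript and not the mature microRNA, was at 2.39 and 4.40 CPM in the Mir182mTg samples and at 0 to 0.0370 CPM in the other 10, so it checks the transgene and cannot check the knockout. The 2 WT RANKL samples were unlike the other 6 samples of their experiment in 2 genes. Lyz2, the lysozyme M gene whose promoter drives the Cre, was at 4117 and 4288 CPM in WT RANKL and between 22.5 and 44.0 CPM in the other 6, and Ifi202b was at 1.12 and 0.972 CPM in WT RANKL and between 82.1 and 152 CPM in the other 6. Control and Mir182mTg cells were like WT RANKL in both genes, with Lyz2 between 5783 and 7062 CPM and Ifi202b at 0.0908 CPM or less. Each comparison that uses the WT RANKL samples therefore carries this difference, and its part in the results cannot be told apart from RANKL or genotype. The response to RANKL of Mir182ΔM/ΔM cells does not use them. The sample labels give basal cells 3 days of M-CSF and RANKL cells 5 days of RANKL besides, while the study describes 5 days either with or without RANKL. If basal cells were taken at 3 days, time in culture and RANKL cannot be told apart in either genotype. Genes called raised or lowered by RANKL are those that differed between RANKL and basal samples. In bulk RNA, fewer cells of a type and less RNA per cell also cannot be told apart. The cells carried the markers of their label: all 10 macrophage markers were at 1 CPM or more in every group, and they summed to 15314 to 15708 CPM in WT basal, 7113 to 7190 CPM in WT RANKL, 13918 to 14071 CPM in Mir182ΔM/ΔM basal and 8310 to 8504 CPM in Mir182ΔM/ΔM RANKL. The 14 osteoclast markers summed to 1219 to 1423 CPM in WT basal, 12334 to 12875 CPM in WT RANKL, 1243 to 1390 CPM in Mir182ΔM/ΔM basal and 4420 to 4571 CPM in Mir182ΔM/ΔM RANKL.

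The 6 genes differed in level by orders of magnitude, and compared per length, as CPM per kilobase of the gene length in the deposited tables, Spp1 led in every group. In WT basal cells the mean was 1396 CPM per kilobase for Spp1, 40.9 for Sema4d and 3.76 for Pdgfb, and under 0.1 for each of Efnb2, Sphk1 and Cthrc1. After RANKL, WT cells had 415.6 CPM per kilobase of Spp1, 197.9 of Sema4d, 38.7 of Pdgfb, 0.897 of Efnb2, 0.637 of Sphk1 and 0.110 of Cthrc1. By this measure Spp1 ranked 17 of 14807 detected genes in WT basal and 114 of 15256 in WT RANKL, while Sema4d moved from rank 1820 to rank 290 and Pdgfb from 8558 to 2176. Spp1 made up 96.9% of the summed per-kilobase level of the 6 genes in WT basal and 63.6% in WT RANKL, and Sema4d 2.84% and 30.3%. In Mir182ΔM/ΔM cells Spp1 went from 97.2% to 78.0% and Sema4d from 2.57% to 17.6%. The order of Spp1, Sema4d and Pdgfb was the same in all 6 groups, with no overlap of their sample values, whereas Efnb2, Sphk1 and Cthrc1 lay close together in the basal groups, at or near the level of 3 reads.

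**Figure D1:**
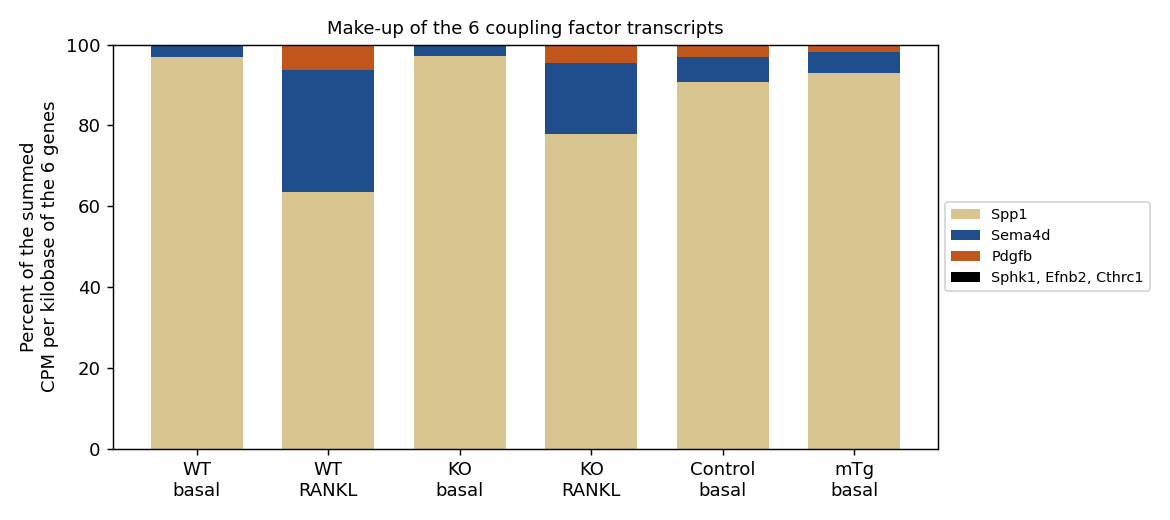
Share of each gene, in percent, in the summed CPM per kilobase of the 6 genes, by group (mean of 2 samples). Spp1 takes 96.9% in WT basal and 63.6% in WT RANKL, Sema4d and Pdgfb take most of the rest, and Sphk1, Efnb2 and Cthrc1 together are too small to see.

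**Figure D2:**
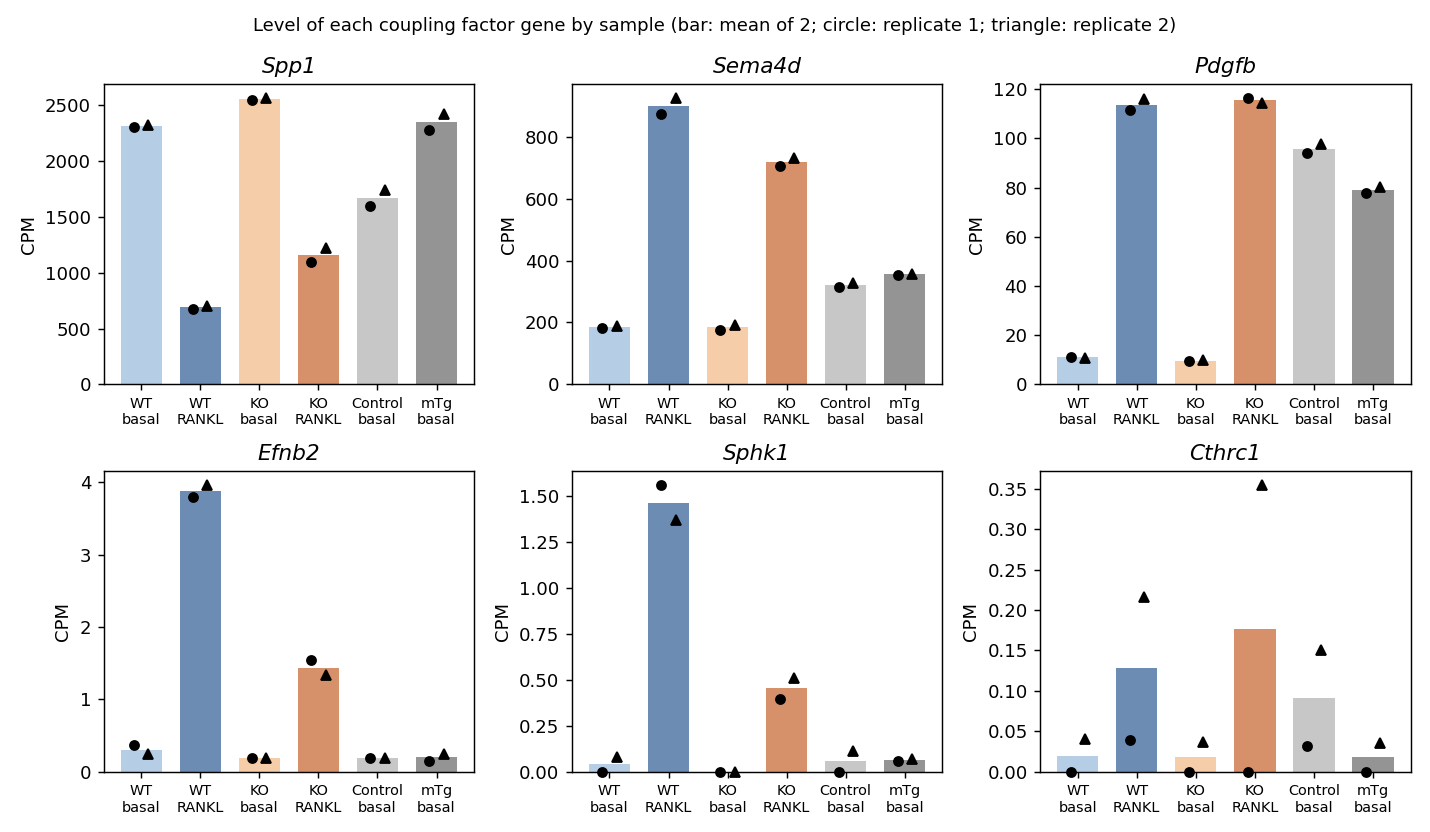
CPM of each of the 6 genes (linear axes from 0, each panel with its own scale) in the 12 samples, with bars at the mean of 2, circles for replicate 1 and triangles for replicate 2. Sema4d, Pdgfb, Efnb2 and Sphk1 are higher and Spp1 is lower after RANKL in both genotypes, KO standing for Mir182ΔM/ΔM, and Cthrc1 stays under 0.4 CPM throughout.

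Sphk1, Sema4d, Efnb2 and Pdgfb were higher and Spp1 was lower in RANKL than in basal samples, in WT and in Mir182ΔM/ΔM cells alike. These are the 5 genes that could be tested; Cthrc1 did not reach 1 CPM in any sample and was not. Tests were made with limma on log2(CPM + 1), adjusted by Benjamini-Hochberg over all 11691 genes that passed a filter of 1 CPM in at least 2 of the 8 samples, and fold changes on this scale understate those of low genes. In WT cells 4 of the 5 passed as higher and 1 as lower, where 40.6% of all tested genes passed as higher and 22% as lower. In Mir182ΔM/ΔM cells 4 and 1 passed, where 30.4% and 26.4% of all genes did. Efnb2 and Sphk1 passed the filter through RANKL samples only, Sphk1 through those of WT alone, so their calls were favoured by the filter and the counts of 4 are not read against these shares. Of the 3 genes at 1 CPM or more in every sample, Sema4d and Pdgfb rose and Spp1 fell in both genotypes.

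Sphk1, the S1P-making kinase, was almost silent without RANKL. WT basal samples held 0 and 2 reads of it and Mir182ΔM/ΔM basal samples 0 and 0. After RANKL the WT samples were at 1.56 and 1.37 CPM, 39 and 38 reads, and the Mir182ΔM/ΔM samples at 0.394 and 0.512 CPM, 12 and 13 reads. The RANKL samples of each genotype lay above all basal samples, and those of WT above those of Mir182ΔM/ΔM. In WT cells the ratio of RANKL to basal reads was 42.0 with an exact 95% counting interval of 11.2 to 353 (77 against 2 reads), and in Mir182ΔM/ΔM cells the level was at least 4.06-fold that of 3 reads per library. The log2 difference was 1.24 (SE 0.103, limma adjusted p = 4.3e-05) in WT and 0.54 (SE 0.103, limma adjusted p = 0.0034) in Mir182ΔM/ΔM cells. Sphk1 entered this test through the WT RANKL samples alone, so its call in WT cells was favoured by the filter and is not read as support.

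Sema4d, the semaphorin that holds osteoblasts back, was at 183 and 189 CPM in WT basal, 873 and 925 CPM in WT RANKL, 177 and 193 CPM in Mir182ΔM/ΔM basal and 705 and 731 CPM in Mir182ΔM/ΔM RANKL. The basal values of the genotypes overlapped, and after RANKL both genotypes were far above them. The increase was 4.83-fold in mean CPM in WT (log2 difference 2.27, SE 0.0677, limma adjusted p = 3.9e-07) and 3.88-fold in Mir182ΔM/ΔM cells (1.95, SE 0.0677, limma adjusted p = 9.9e-07). Sema4d was also at 315 and 326 CPM in Control and 354 and 358 CPM in Mir182mTg cells, which had no RANKL, so the basal level itself differed between the experiments.

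Efnb2, the ephrin ligand, was low throughout. Basal samples were at 0.367 and 0.240 CPM in WT and 0.185 and 0.187 CPM in Mir182ΔM/ΔM cells, and RANKL samples at 3.79 and 3.96 CPM in WT and 1.54 and 1.34 CPM in Mir182ΔM/ΔM cells. Again every RANKL sample lay above every basal sample, and WT RANKL above Mir182ΔM/ΔM RANKL. The ratio of mean CPM was 12.8 in WT (log2 difference 1.90, SE 0.102, limma adjusted p = 5.0e-06) and 7.76 in Mir182ΔM/ΔM cells (1.04, SE 0.102, limma adjusted p = 0.00012). Those ratios rest on 18 basal reads in WT and 10 in Mir182ΔM/ΔM cells. Efnb2 entered the test through RANKL samples alone, so both calls were favoured by the filter.

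Pdgfb, the chain of PDGF-BB, had the largest increase of the 5 on the log2(CPM + 1) scale. It was at 11.2 and 10.9 CPM in WT basal, 111 and 116 CPM in WT RANKL, 9.36 and 9.96 CPM in Mir182ΔM/ΔM basal and 116 and 115 CPM in Mir182ΔM/ΔM RANKL. RANKL samples of the genotypes overlapped and lay far above both basal pairs. The increase was 10.3-fold in WT (log2 difference 3.25, SE 0.0710, limma adjusted p = 1.4e-07) and 11.95-fold in Mir182ΔM/ΔM cells (3.45, SE 0.0710, limma adjusted p = 1.8e-07). Control cells without RANKL held 94.0 and 97.8 CPM and Mir182mTg cells 77.9 and 80.3 CPM, closer to the RANKL than to the basal samples of the loss of function experiment. Since the Control samples resembled the WT RANKL samples in Lyz2 and Ifi202b, the rise in WT cells cannot be told apart from that difference, while the rise in Mir182ΔM/ΔM cells was measured between samples alike in both genes. Values of the 2 experiments were not tested against each other.

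Spp1, osteopontin, was the only one of the 5 to go down. It was at 2305 and 2325 CPM in WT basal, 674 and 704 CPM in WT RANKL, 2549 and 2566 CPM in Mir182ΔM/ΔM basal and 1099 and 1224 CPM in Mir182ΔM/ΔM RANKL. No pair of these groups overlapped. Control cells without RANKL held 1595 and 1739 CPM, between the WT basal and WT RANKL samples. Those Control samples resembled WT RANKL in Lyz2 and Ifi202b, so the lower Spp1 of WT RANKL cannot be told apart from that difference. Mean CPM of Spp1 fell 3.36-fold in WT (log2 difference −1.75, SE 0.0701, limma adjusted p = 1.4e-06) and 2.20-fold in Mir182ΔM/ΔM cells (−1.14, SE 0.0701, limma adjusted p = 1.2e-05). With RANKL 10 of 10 macrophage markers fell in WT cells (median log2 difference −1.51) and 6 in Mir182ΔM/ΔM cells (−0.43), and their part in the fall of Spp1 was not tested.

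Cthrc1, the secreted collagen repeat protein, was measured by 0 to 9 reads in each of the 12 samples. Its highest value was 0.354 CPM, in 1 Mir182ΔM/ΔM RANKL sample whose partner had 0 reads. A group difference was not detectable at this depth.

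**Figure D3:**
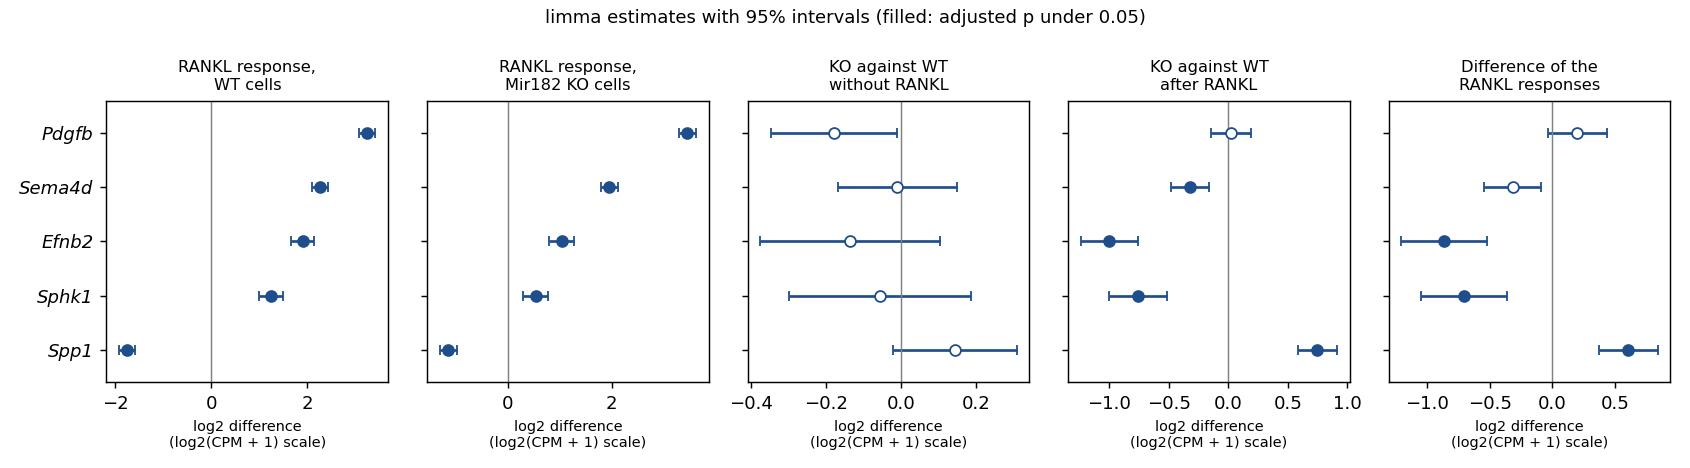
Differences on the log2(CPM + 1) scale with 95% intervals from limma for the 5 tested genes, in each RANKL response (RANKL minus basal), between genotypes (KO, that is Mir182ΔM/ΔM, minus WT) without and after RANKL, and between the 2 RANKL responses. Filled circles passed an adjusted p of 0.05: all 5 pass for RANKL in both genotypes, none passes between basal genotypes in this fit without the replicate block (with it Pdgfb and Spp1 do), and Sphk1, Efnb2 and Sema4d are lower and Spp1 higher in Mir182ΔM/ΔM cells after RANKL. Of all tested genes, 40.6% were higher and 22% lower with RANKL in WT cells, and 30.4% and 26.4% in Mir182ΔM/ΔM cells. Between genotypes, 2.71% were higher and 1.1% lower without RANKL, and 14.3% and 30.9% after RANKL. Sphk1 and Efnb2 entered the test through RANKL samples only. The Sema4d call after RANKL was lost with TMM factors, edgeR and DESeq2. The axes differ between panels.

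After RANKL, Mir182ΔM/ΔM cells had less Efnb2, Sphk1 and Sema4d and more Spp1 than WT cells, and Pdgfb did not pass. That is 3 of 5 tested genes lower and 1 higher, of which Sphk1 was in the test only because WT RANKL samples exceeded 1 CPM, so that its lower value was favoured by the filter and the count of 3 is not read as support. Over all tested genes, 30.9% were lower and 14.3% higher, and with TMM factors, which rescale the libraries for their RNA composition, the genes lower and higher numbered 2362 and 2438 in place of 3607 and 1668. WT cells held 3.87 ± 0.118 CPM of Efnb2 (SD, n = 2) and Mir182ΔM/ΔM cells 1.44 ± 0.146 CPM, a log2 difference of −0.999 (SE 0.102, limma adjusted p = 0.00025). Mean Sphk1 was 1.46 ± 0.134 and 0.453 ± 0.0830 CPM, a log2 difference of −0.76 (SE 0.103, limma adjusted p = 0.00096), and in reads a ratio of 0.307 (exact 95% counting interval 0.187 to 0.488). On the recovered reads Sphk1 had an adjusted p of 0.0214 with edgeR and missed the threshold with DESeq2 (0.0818), and without either WT RANKL sample it fell out of the filter. Mean Spp1 was 689 ± 21.4 and 1161 ± 88.6 CPM, a log2 difference of 0.75 (SE 0.0701, limma adjusted p = 0.00017).

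For Sema4d after RANKL, the means were 899 ± 36.9 CPM (SD, n = 2) for WT and 718 ± 18.1 CPM for Mir182ΔM/ΔM cells, a log2 difference of −0.32 (SE 0.0677, limma adjusted p = 0.0073), and the samples did not overlap. This call depended on the scaling, since TMM factors gave −0.17 (limma adjusted p = 0.0915) and moved the median of all genes by 0.141 in this comparison. It was also lost with edgeR (adjusted p = 0.0854), with DESeq2 (adjusted p = 0.0995) and without WT RANKL replicate 2 (limma adjusted p = 0.0534). Pdgfb was at 114 ± 3.23 and 115 ± 1.34 CPM, a log2 difference of 0.02 with a 95% interval of −0.15 to 0.19 (limma adjusted p = 0.823). Marker genes moved with these differences. Of 14 osteoclast markers 12 were lower and 1 higher in Mir182ΔM/ΔM cells (9 and 1 with TMM factors), and of 10 macrophage markers 5 were higher and 2 lower (5 and 1 with TMM factors), with a median log2 difference of 0.51. The part of either list in the result was not tested.

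Without RANKL, none of the 5 passed between the genotypes in the limma fit, where 2.71% of all genes were higher and 1.1% lower in Mir182ΔM/ΔM cells. At an unadjusted p under 0.05, 1 gene, Pdgfb, differed, but the share of all genes at that threshold was not counted. At the adjusted threshold edgeR and DESeq2 called 0. The replicate number marks a batch of libraries, and with it as a block Pdgfb was lower by a log2 difference of −0.18 (limma adjusted p = 0.0183) and Spp1 higher by 0.14 (limma adjusted p = 0.0015). That fit called 2170 genes higher and 1481 lower of the 11691 tested. In Pdgfb and Spp1 each Mir182ΔM/ΔM sample lay on the same side of both WT samples. The share of all genes that did so was not counted. Pdgfb differed by 9.66 ± 0.425 against 11.1 ± 0.226 CPM and Spp1 by 2558 ± 11.7 against 2315 ± 13.7 CPM (SD, n = 2 each). These samples were alike in Lyz2 and Ifi202b. For Sema4d the basal difference was −0.01 with a 95% interval of −0.17 to 0.15.

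The response to RANKL itself was compared between genotypes by the interaction term of the same limma fit, the response in Mir182ΔM/ΔM cells minus that in WT cells. It was lower for Sphk1 and Efnb2 and higher for Spp1, that is 2 and 1 of 5, where 17.1% of all genes were lower and 7.44% higher. Nothing is read from that count, since Sphk1 was in the test only through the WT RANKL samples and a smaller response in Mir182ΔM/ΔM cells was favoured by the filter. Spp1 fell less in Mir182ΔM/ΔM cells, by a log2 difference of 0.61 (SE 0.0991, limma adjusted p = 0.0046), which passed with edgeR too (0.77, adjusted p = 0.0020). Efnb2 rose less, by −0.86 (SE 0.144, limma adjusted p = 0.0050), and Sphk1 by −0.71 (SE 0.145, limma adjusted p = 0.012). Both calls rest on the log2(CPM + 1) scale, in which a low gene with a smaller increase in CPM has a smaller change. With a pseudocount of 0.1 the adjusted p was 0.0885 for Efnb2 and 0.171 for Sphk1, and with edgeR on reads it was 0.630 for Efnb2. For Sphk1 edgeR gave a difference of the opposite sign, 1.64 (adjusted p = 0.568), which depends on the prior count because Mir182ΔM/ΔM basal samples had 0 reads.

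The interaction was −0.32 for Sema4d (limma adjusted p = 0.0522) and 0.20 for Pdgfb (limma adjusted p = 0.201). With the replicate block both passed, at a limma adjusted p of 1.5e-06 for Sema4d and 0.0345 for Pdgfb. That fit called 1888 genes higher and 5001 lower of the 11691 tested, so nothing is read from both passing. TMM factors moved the median of all genes by 0.157 in the interaction and by −0.191 in the response of WT cells, and Pdgfb then gave 0.37 (limma adjusted p = 0.0420). All of these comparisons share the WT RANKL samples.

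Mir182mTg cells were compared with their own Controls without RANKL, by edgeR on the raw counts of 12081 genes. Only Sema4d, Pdgfb and Spp1 had enough reads to be tested. None passed, where 0.0993% of all genes were higher and 0.157% lower. At an unadjusted p under 0.05 Spp1 was higher and Pdgfb lower, but the share of all genes at that threshold was not counted. Spp1 was at 1595 and 1739 CPM in Control and 2281 and 2424 CPM in Mir182mTg cells, a log2 difference of 0.49 (SE 0.0836, edgeR adjusted p = 0.156). Pdgfb, with the values given above, differed by −0.29 (SE 0.0763, edgeR adjusted p = 0.420) and Sema4d by 0.14 (SE 0.0672, edgeR adjusted p = 0.832). In all 3 genes the samples of the groups did not overlap. The share of all genes without overlap was not counted, so nothing is read from this. The 6 neutrophil markers found summed to 48.4 to 50.1 CPM in Control and 102 to 113 CPM in Mir182mTg cells (median log2 difference 1.22), of which 0 passed with edgeR and 6 with the replicate block, and their part in these differences was not tested. With the replicate block all 3 passed, with edgeR adjusted p = 3.1e-09 for Spp1, 5.2e-05 for Pdgfb and 0.0030 for Sema4d. That fit called 838 genes higher and 984 lower of the 12081 tested. DESeq2 called Spp1 alone (adjusted p = 0.0054), and limma on log2(CPM + 1) called 0 of them. Sphk1 had 3 reads in Control and 4 in Mir182mTg cells over both samples, Efnb2 11 and 12, and Cthrc1 5 and 1.

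Partner genes of the factors, in 7 lists, gave medians after RANKL (Mir182ΔM/ΔM minus WT, log2) of −0.18 for S1P genes, −0.33 for semaphorins and plexins, −1.14 for ephrins and Eph receptors, −0.53 for Cthrc1 partners and Wnt ligands, −0.10 for PDGF genes, −0.23 for osteopontin receptors and enzymes and 0.07 for other coupling factors, beside −0.14 for all tested genes. The counts given for these lists stand beside shares over all tested genes of 40.6% raised and 22% lowered by RANKL in WT cells, 30.4% and 26.4% in Mir182ΔM/ΔM cells, and 14.3% higher and 30.9% lower between genotypes after RANKL. Several counts are near those shares, low genes entered the test through the group where they are high, and nothing is called particular to a list from its count.

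The genes around Sphk1 in S1P metabolism, transport and sensing numbered 19, of which 14 were tested. RANKL raised 5 and lowered 6 of them in WT cells, and 4 and 6 in Mir182ΔM/ΔM cells; after RANKL 3 were higher and 6 lower in Mir182ΔM/ΔM than in WT cells, 6 and 7 with the replicate block and 5 and 5 with TMM factors. Spns2, an S1P exporter, was the most changed, from 0.147 CPM in WT basal to 46.8 ± 3.09 CPM (SD, n = 2) in WT RANKL (log2 difference 5.38, limma adjusted p = 1.3e-07), and it was at 13.5 CPM in Mir182ΔM/ΔM RANKL (−1.72 against WT, limma adjusted p = 3.3e-05). Ppap2a, a lipid phosphate phosphatase, rose from 1.78 to 12.2 CPM in WT cells and was at 3.66 CPM in Mir182ΔM/ΔM RANKL. S1pr1, an S1P receptor, fell from 136 to 33.3 CPM in WT cells and was lower still, at 18.3 CPM, in Mir182ΔM/ΔM RANKL (log2 difference −0.83 against WT, limma adjusted p = 0.0016). Asah2, a ceramidase, fell from 44.4 to 17.99 CPM in WT cells and was higher, at 29.6 CPM, in Mir182ΔM/ΔM RANKL. Sphk2, the other S1P kinase, was well above Sphk1, with 108 CPM basal and 147 CPM after RANKL in WT cells.

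Of 26 semaphorins, plexins and Sema4d processing genes, 21 were tested. RANKL raised 10 and lowered 4 in WT cells, and after RANKL 3 were higher and 9 lower in Mir182ΔM/ΔM cells, 5 and 9 with TMM factors. Mmp14, a membrane protease, went from 2.29 to 287 ± 24.9 CPM (SD, n = 2) with RANKL in WT cells and was at 31.2 CPM in Mir182ΔM/ΔM RANKL (log2 difference −3.16 against WT, limma adjusted p = 2.1e-06). Plxna4 and Sema7a followed the same order, with 0.810, 105 and 35.5 CPM for Plxna4 and 0.182, 20.1 and 2.99 CPM for Sema7a in WT basal, WT RANKL and Mir182ΔM/ΔM RANKL. Sema4a was at 49.7 CPM in WT RANKL and 23.4 CPM in Mir182ΔM/ΔM RANKL, and Nrp1, a semaphorin coreceptor, fell from 891 to 134 CPM with RANKL in WT cells. Of the receptors of Sema4d itself, Plxnb1 did not exceed 0.309 CPM in any group, Plxnb2 lay between 844 and 1257 CPM in the 6 groups, and Cd72 was higher in Mir182ΔM/ΔM than in WT cells after RANKL (log2 difference 0.96, limma adjusted p = 3.0e-05).

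Ephrins and Eph receptors were mostly silent, and 4 of 18 were tested. Among these, 3 rose in WT cells with RANKL and none fell, and after RANKL 3 were lower and 1 higher in Mir182ΔM/ΔM cells. Efnb1 stood at 3.35 CPM basal and 14.3 CPM after RANKL in WT cells, with 3.57 CPM in Mir182ΔM/ΔM RANKL, and Efna2 at 0.516, 9.44 and 2.95 CPM. Epha2 was the one that was higher, at 5.95 CPM in Mir182ΔM/ΔM RANKL against 2.61 CPM in WT RANKL (log2 difference 0.95, limma adjusted p = 0.00082). Ephb4, the partner of ephrin-B2 on osteoblasts, did not exceed 0.135 CPM in any group.

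For Cthrc1, 4 of 14 Wnt ligands, Frizzled receptors and partners were tested; RANKL raised 2 in WT cells, and after RANKL 2 were lower in Mir182ΔM/ΔM cells. WT cells held 13.5 CPM of Fzd5, a Frizzled receptor, basal and 16.9 CPM after RANKL, a rise that TMM factors took below the threshold (limma adjusted p = 0.381), and Mir182ΔM/ΔM RANKL cells held 8.94 CPM. Of 8 PDGF ligands, receptors and activating proteases 5 were tested, with 2 raised and 3 lowered by RANKL in WT cells and 2 higher and 2 lower in Mir182ΔM/ΔM than in WT cells after RANKL. Pdgfa rose with Pdgfb, from 2.56 to 20.5 CPM in WT cells (log2 difference 2.61, limma adjusted p = 1.1e-05), and Pdgfc fell from 7.10 to 2.76 CPM. The proteases Plau and Furin fell in WT cells from 188 to 55.0 CPM and from 218 to 102 CPM. After RANKL Plau was higher in Mir182ΔM/ΔM cells at 186 CPM (log2 difference 1.74, limma adjusted p = 0.00020) and Furin lower at 86.97 CPM, a call lost with TMM factors (limma adjusted p = 0.444).

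Osteopontin receptors and enzymes that process it made a list of 16, with 14 tested. In WT cells RANKL raised 9 and lowered 3 (9 and 5 with the replicate block), while Spp1 itself fell, and after RANKL 5 were higher and 7 lower in Mir182ΔM/ΔM cells. Mmp9 and Acp5, a protease and the phosphatase TRAP, went from 5.14 to 4932 CPM and from 4.22 to 2330 CPM in WT cells, and Acp5 was at 531 CPM in Mir182ΔM/ΔM RANKL (log2 difference −2.13 against WT, limma adjusted p = 8.5e-05). The integrin chains Itgav and Itgb3, which pair as an osteopontin receptor on osteoclasts, went from 101 to 511 CPM and from 13.2 to 59.0 CPM in WT cells. They parted in Mir182ΔM/ΔM RANKL cells, where Itgav was lower, at 259 CPM (log2 difference −0.98, limma adjusted p = 3.3e-05), and Itgb3 higher, at 83.1 CPM (0.49, limma adjusted p = 0.0025). Mmp12 was higher, at 117 CPM against 49.5 CPM in WT RANKL, as was the receptor Cd44, at 749 against 517 CPM (log2 difference 0.53, limma adjusted p = 0.0078).

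Of 16 other genes described as osteoclast-derived coupling factors, 12 were tested, and 5 rose and 5 fell with RANKL in each genotype. After RANKL 4 were higher and 3 lower in Mir182ΔM/ΔM cells. Bmp2, a bone morphogenetic protein, reached 26.96 CPM in Mir182ΔM/ΔM against 8.85 ± 0.665 CPM (SD, n = 2) in WT cells (log2 difference 1.504, limma adjusted p = 9.5e-05), and C3, the complement component, at 1278 and 481 CPM (1.41, limma adjusted p = 2.4e-05). Lif and Hgf, a cytokine and a growth factor, were lower, at 1.71 against 5.81 CPM and 2.77 against 6.71 CPM. RANKL lowered Igf1 in WT cells from 1083 to 164 CPM and raised Tnfrsf11a, the gene of the RANKL receptor RANK, which is released in vesicles, from 91.3 to 274 CPM.

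**Figure D4:**
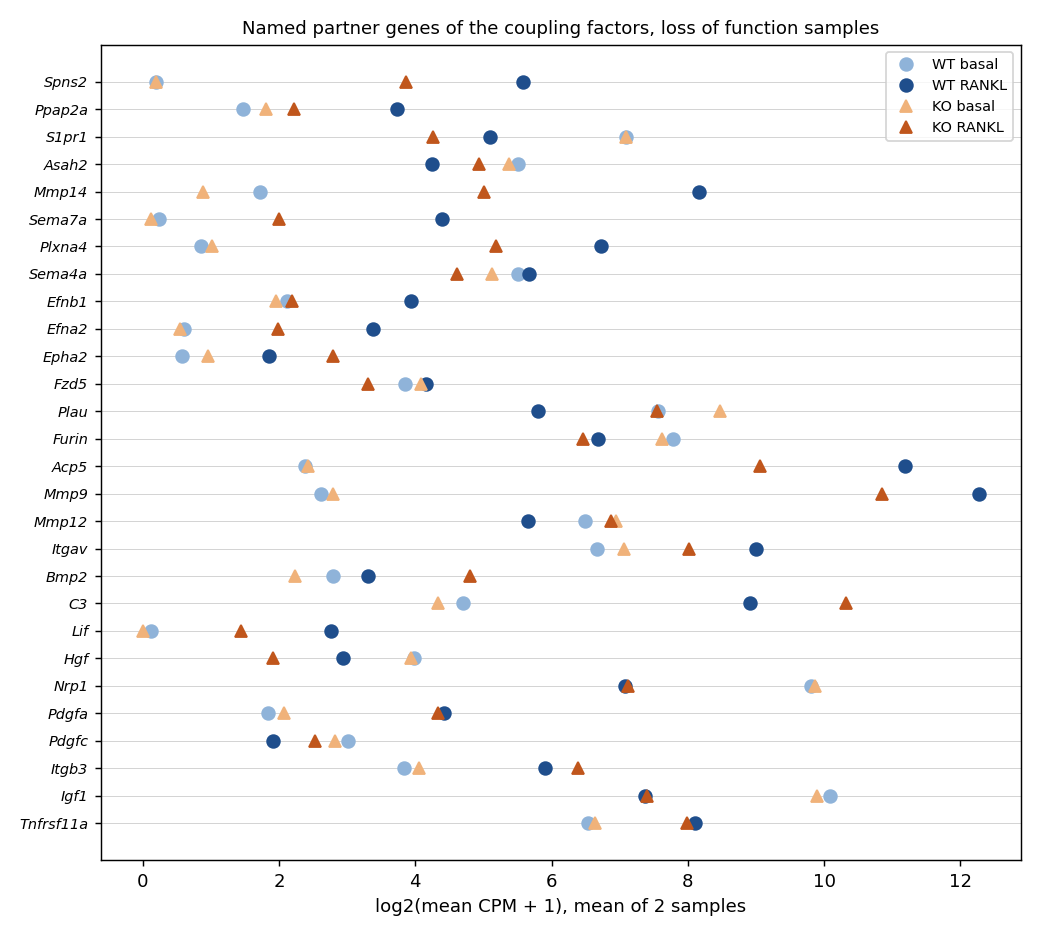
Level of the named genes from the 7 lists around the coupling factors, as log2(mean CPM + 1) of 2 samples in each loss of function group (circles WT, triangles KO, that is Mir182ΔM/ΔM, light basal, dark RANKL). Spns2, Mmp14, Plxna4, Acp5 and Mmp9 rise with RANKL in both genotypes and lie lower in Mir182ΔM/ΔM than in WT cells after RANKL, while Bmp2, C3 and Plau lie higher.

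Markers of other cells that make these factors were measured beside them. Platelets carry PDGF, and the 6 megakaryocyte and platelet markers summed to 211 to 243 CPM in WT basal, 34.8 to 39.6 CPM in WT RANKL, 186 to 204 CPM in Mir182ΔM/ΔM basal and 40.4 to 44.1 CPM in Mir182ΔM/ΔM RANKL, almost all of it Pf4. This sum fell with RANKL, where Pdgfb rose. It was higher in Control (254 to 307 CPM) and Mir182mTg cells (303 to 345 CPM), where Pdgfb was also above its WT and Mir182ΔM/ΔM basal levels. T cells make Sema4d, and of 8 lymphocyte markers only Cd4 reached 1 CPM in any group, with Cd3e at 0.0180 CPM or less. The 14 stromal and osteoblast markers summed to 11.8 to 24.7 CPM in WT basal, 34.4 to 54.4 CPM in WT RANKL, 8.70 to 27.2 CPM in Mir182ΔM/ΔM basal and 28.3 to 45.0 CPM in Mir182ΔM/ΔM RANKL, with Sp7, Alpl and Bglap at 0.108 CPM or less in every group. The 6 endothelial markers, of interest for Efnb2, summed to 76.9 to 92.3, 51.7 to 62.4, 91.9 to 112 and 119 to 120 CPM in the same order, and of the 5 tested 4 were higher and 1 lower in Mir182ΔM/ΔM than in WT cells after RANKL. Kdr was higher, at 101 CPM against 24.9 CPM, the opposite order to that of Efnb2, and Vwf was lower, at 10.7 CPM against 31.5 CPM (log2 difference −1.47, limma adjusted p = 0.00038), the same order as that of Efnb2. The 6 neutrophil markers found summed to 79.4 to 87.1 CPM in WT basal, 18.96 to 19.3 CPM in WT RANKL, 95.3 to 101 CPM in Mir182ΔM/ΔM basal and 5.59 to 5.81 CPM in Mir182ΔM/ΔM RANKL, and the 6 dendritic cell markers lay between 6.85 and 7.96 CPM in the basal and between 21.2 and 22.2 CPM in the RANKL samples of both genotypes. The part of any such cells in the levels was not tested.

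The genes whose level followed each coupling factor most closely over the 12 samples were found by Pearson's r of log2(CPM + 1), a description with no test, since the samples of a condition share their treatment and the WT RANKL samples stand apart. For Efnb2 they were C730036E19Rik, Lif and St8sia6 (r = 0.998, 0.997 and 0.996), for Sphk1 Ablim1, Matk and Ghr (0.994, 0.992 and 0.992), and for Sema4d Elp3, Nfkbid and Polr2e (0.995, 0.992 and 0.992). For Pdgfb they were Thop1, F11r and Fhod3 (0.989, 0.988 and 0.985) and for Spp1 Gdf15, Lgals3 and Fbxl2 (0.991, 0.981 and 0.976). Like Pdgfb, Fhod3 and F11r were high in Control cells, at 12.4 and 12.6 CPM, against 0.905 and 1.44 CPM in WT basal and 20.4 and 21.4 CPM in WT RANKL. Gdf15 had a fall like that of Spp1, from 23.1 to 0.769 CPM in WT cells and from 27.7 to 3.98 CPM in Mir182ΔM/ΔM cells. For Cthrc1 the highest r was 0.874, with Psma5, and at its depth the pattern cannot be read.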

How the data were processed

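Per the methods, RNA-seq libraries of BMMs were made from poly-A+ transcripts, and the authors aligned the reads to mm10 with TopHat or HISAT2 and counted reads per gene with HTSeq. The values deposited for WT and Mir182ΔM/ΔM cells (8 samples) are CPM from edgeR, and those the authors deposited for Control and Mir182mTg cells (4 samples) are raw counts. The deposited files of replicate 1 also hold RPKM (Cufflinks in the processing notes), which here is the CPM divided by 1 fixed length per gene and gave the lengths used for per-kilobase levels. The versions of these tools are not given in the sources used here. Every file holds 24421 rows, whose names had the same order in all files apart from 27 that differed between files, as gene names turned into dates, and were not used by name.

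CPM were whole multiples of 1 read in 100% of values within 0.05 reads, so whole reads were recovered. They were tested with limma 3.58.1 (lmFit, eBayes with a trend) in 1 fit of 4 groups, with a pseudocount of 1. The counts were tested with edgeR 4.0.16 (TMM, filterByExpr, quasi-likelihood). P-values are 2-sided and adjusted by Benjamini-Hochberg at 0.05. On the recovered reads edgeR called 2389 genes higher and 2362 lower between genotypes after RANKL. The smallest level interpreted was 3 reads; intervals of read ratios are exact binomial and cover counting error only.

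Replicate 1 is labelled polyA RNA and replicate 2 total RNA. The deviations of same-numbered samples correlated with r = 0.692 to 0.758 over 6 pairs of conditions, and 0.77 in the gain of function experiment. Same-numbered samples thus share a batch, and whether they also share a mouse or culture cannot be told from this. A difference between the batches is seen in Rn45s, at 742 to 1176 CPM in replicate 1 and 9778 to 21273 CPM in replicate 2.

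The members and gene lists were chosen with earlier results of these data known. Named genes are all members, up to 4 past-threshold genes with the largest change per partner list with at least 5 CPM in the higher group (after RANKL between genotypes, and RANKL in WT), the 3 most alike genes per member, and checks; receptors of a member and Sphk2 were added for their known roles. Of the list genes, Ly6g was not matched by name. The 8 lists of cell markers served as checks. The scripts were tested on simulated data. Alternatives were a pseudocount of 0.1, other filters, TMM factors, the replicate block, edgeR, DESeq2 1.42.0 and leaving out samples. Sequences are from RefSeq (GRCm38.p6) and GENCODE vM21.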

Additional observations from a re-analysis of the deposited data

Results flagged for a closer look

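The response to RANKL differed between the genotypes for 3 genes in the limma test of the interaction, the response in Mir182ΔM/ΔM cells minus that in WT cells. It was −0.71 for Sphk1, −0.86 for Efnb2 and 0.61 for Spp1 on the log2(CPM + 1) scale. Sphk1 was in the test only because the WT RANKL samples exceeded 1 CPM, so its value was favoured by the filter. All 3 use the WT RANKL samples, and the difference of those samples in Lyz2 and Ifi202b cannot be told apart from the genotype. The Spp1 value kept its call with edgeR, DESeq2 and TMM factors, and those of Sphk1 and Efnb2 did not with edgeR, DESeq2 or a pseudocount of 0.1.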

How the results depend on the processing

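Of 420 values of single coupling factor genes under the alternatives, 390 kept their direction and side of the threshold, 9 were no longer past it, 16 came past it and 5 changed sign. The RANKL responses of Sema4d, Efnb2, Pdgfb and Spp1 passed in both genotypes under every alternative that kept 2 samples in each fitted group. Those in Mir182ΔM/ΔM cells also passed without both WT RANKL samples, with the replicate block (an alternative chosen after seeing the data) and without it. Sphk1 could not be fitted without those samples or under the stricter filter. Efnb2 reached 1 CPM in RANKL samples only, so the filters on low values favoured its calls.

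After RANKL, 3 genes were lower in Mir182ΔM/ΔM cells, but 1 with DESeq2 and 1 to 3 without each sample in turn, with 1 (Efnb2) without WT RANKL replicate 2. The Pdgfb difference lay between −0.0066 and 0.051 without each sample in turn, and the basal Sema4d difference between −0.071 and 0.053. For the interaction, 2 genes were lower, but 0 with a pseudocount of 0.1, edgeR or DESeq2, 1 with a filter of 1 CPM in 4 samples, and 1 to 2 without each sample in turn, with 1 without either WT RANKL sample; the higher ones were 2, not 1, with TMM factors or edgeR. Sphk1 changed sign there, to 1.64 with edgeR and 0.85 with DESeq2. In Mir182mTg cells 1 gene, Spp1, was higher with no filter or with DESeq2.

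The replicate block, which follows the replicate numbers, gave 1 gene higher and 1 lower between basal genotypes, with and without TMM factors. It gave 2 higher in the interaction, with and without TMM factors, 2 higher after RANKL with TMM factors, and 2 higher and 1 lower in Mir182mTg cells. Over all genes it gave 2170 higher and 1481 lower between basal genotypes, against 317 and 129 without it, 2740 and 5815 after RANKL, against 1668 and 3607, 1888 and 5001 in the interaction, against 870 and 2005, and 838 and 984 in Mir182mTg cells, against 12 and 19. With TMM factors RANKL in WT cells raised 3369 genes and lowered 3562, against 4741 and 2571, and the interaction was higher for 1239 and lower for 1274. Over the other alternatives, the basal genotypes differed in as few as 69 genes higher and 28 lower, without Mir182ΔM/ΔM basal replicate 1, and leaving out any 1 of the 8 samples gave at most 81 lower. Without WT RANKL replicate 1 or 2 the interaction was lower for 1271 or 1289 genes. In Mir182mTg cells leaving out 1 sample gave 31 to 85 genes higher and 24 to 81 lower. Reads limit Sphk1, Efnb2 and Cthrc1, and 2 samples a group limit all tests.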
